A study of Homo sapiens with 18 samples.

Results

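The genes described were the 5 subunits of the transcription factor NF-κB (NFKB1, NFKB2, REL, RELA and RELB) and 5 proteins of the inhibitor of NF-κB (IκB) family: the classical inhibitors NFKBIA, NFKBIB and NFKBIE, and the nuclear family members NFKBIZ and BCL3. They were found by symbol through GENCODE 29 and made up 10 of the 57500 genes in the count tables, each with 1 row. RNA was sequenced from THP-1, an established human monocytic leukaemia line, in 6 groups of 3 libraries. All cells carried a stable lentiviral short hairpin RNA kept under puromycin: a non-targeting hairpin in shNT cells, one against NR4A2 in shNR4A2 cells and one against NR4A3 in shNR4A3 cells, so that shNT is a hairpin control and not an untransduced line. Each line was held in buffered DMEM and either left without LPS (control) or given LPS at 2.5 µg/ml for 2 h. The labels name a single line per target and do not say how many hairpins it carried. An effect of a hairpin and an effect of losing its target therefore cannot be told apart. The design asks how depletion of the orphan nuclear receptors NR4A2 and NR4A3 bears on the response of monocytic cells to LPS. Gene counts per library summed to between 16171161 and 23929138. Levels are given as TPM, transcript levels scaled by gene length and by library. Differences are log2 fold changes from edgeR's quasi-likelihood test, called at a Benjamini-Hochberg adjusted p under 0.05 over all genes tested. The standard error (SE) is not an output of that test. It was derived as the absolute log2 fold change divided by the square root of the F statistic.

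NF-κB proteins act as dimers: RELA, REL and RELB carry the domain that activates transcription, while NFKB1 and NFKB2 are made as long precursors that are cut to p50 and p52. In resting cells the classical IκB proteins hold the dimers in the cytoplasm. LPS sensed by TLR4 leads, through MYD88 and the IκB kinases, to destruction of these inhibitors, after which the dimers bind κB sites in DNA; several subunit and inhibitor genes are themselves known κB targets, NFKBIA being the textbook negative feedback gene. NFKBIZ and BCL3 work in the nucleus, where they join p50 or p52 dimers and alter which target genes are transcribed.

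The stretches of promoter that match the κB consensus are shown because this consensus describes the sites that NF-κB dimers bind. RefSeq windows (GRCh38.p14) of 250 bases before to 50 bases after a start were used for 8 of the genes (all but RELB and NFKBIE), 14 windows in all. The κB consensus of 10 bases, searched on both strands, matched 9 of the 14 windows and 7 of the 8 genes, beside 11.3% of all 35116 windows and 13.3% of all genes. They held 12 matching stretches in all, of which 8 are printed: at least 1 for each gene with a match, leaving out 2 of NFKB2, 1 of NFKBIZ and 1 of NFKBIB. Capitals mark the matching bases, overlapping matches joined, with 8 bases on each side, written 5′ to 3′ along the gene's own strand.
NFKB1, chr4:102501302-102501327, plus strand, from base -49: acgtcagtGGGAATTTCCagccagga
NFKB2, chr10:102394463-102394489, plus strand, from base -107: aacgtcatGGGAATTCCCCcctccggg
NFKB2, chr10:102395676-102395701, plus strand, from base -21 of another start: gtattttcGGGACTTTCCtaagctgc
REL, chr2:60881519-60881545, plus strand, from base -47: tcagccgcGGGAAATTCCCctcccgcc
NFKBIA, chr14:35404813-35404838, minus strand, from base -81: actggcttGGAAATTCCCcgagcctg
NFKBIB, chr19:38899933-38899959, plus strand, from base -28: gcgtggtgGGGAATTTCCCgcagggcg
NFKBIZ, chr3:101827759-101827784, plus strand, from base -223: tttggtctGGGAATTTCCagtgtgca
BCL3, chr19:44748702-44748727, plus strand, from base 3 after the start: ggctgcagGGGAAGTCCCggcgcccg
NFKB1, NFKBIB and NFKBIZ held the same 10 letters, GGGAATTTCC, and REL and NFKBIA held them on the other strand, printed as GGAAATTCCC, so that 5 genes shared this match. The RELA windows, 2 in number, held no match. The element that NR4A receptors bind as monomers, AAAGGTCA, searched on both strands, was in 0 of the 14 windows and in 1.22% of all windows. Elements bound by their dimers, partial matches and bases further from a start were not searched. A match of letters is a description and not a measured binding site.

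Before the genes themselves, the hairpins and the identity of the cells were checked. NR4A2 stood at 4.16, 2.83 and 4.08 TPM in the shNT controls against 1.82, 1.63 and 2.41 TPM in the shNR4A2 controls, and with LPS at 62.2, 74.7 and 51.3 TPM against 20.5, 28.3 and 14.8 TPM. NR4A3 stood at 0.556, 0.693 and 0.512 TPM in the shNT controls against 0.158, 0.107 and 0.0315 TPM in the shNR4A3 controls, and with LPS at 30.9, 32.3 and 31.9 TPM against 17.0, 18.2 and 16.7 TPM. Each target was lower in its own line in every library, with a log2 fold change for NR4A2 of -0.91 (SE 0.228, edgeR adjusted p = 0.0359) without and -1.52 (SE 0.192, edgeR adjusted p = 0.00265) with LPS, and for NR4A3 of -2.47 (SE 0.490, edgeR adjusted p = 0.00767) without and -0.82 (SE 0.0799, edgeR adjusted p = 0.000556) with LPS; NR4A3 without LPS rests on 58 counts over the shNT libraries and 9 over the shNR4A3 libraries. All 12 monocytic markers were detected in every library and summed to between 2024 and 4849 TPM, the most abundant in each library being CEBPA, FCER1G or SPI1. Their sum was lower in shNT cells, at 3551, 3287 and 2922 TPM without and 2608, 2187 and 2024 TPM with LPS, than in the knockdown lines, where it ran from 3771 to 4849 TPM without and from 2943 to 3722 TPM with LPS. The knockdown libraries lay above all shNT libraries in the same state. Outside shNR4A3 cells with LPS, this separation across replicate numbers needed LYZ, the lysozyme gene. LYZ was higher by log2 1.68 and 1.76 in shNR4A2 and 2.25 and 2.29 in shNR4A3 cells, without and with LPS. The sum without LYZ was chosen after seeing the data. In it, control replicate 3 stood at 3062 TPM in shNR4A2 and 3241 TPM in shNR4A3 cells, against 3353 TPM in shNT control replicate 1. With LPS, shNR4A2 replicate 3 stood at 2435 TPM against 2449 TPM in shNT replicate 1. By replicate number, each knockdown library still lay above the shNT library of the same state without LYZ. In replicate 3, shNT stood at 2720 TPM without and 1868 TPM with LPS. Of the 12 markers 5 and 4 were called higher in shNR4A2 and 5 and 4 in shNR4A3 cells without and with LPS, and none lower. Over all genes tested 6.45% and 6.96% were called in either direction in shNR4A2 cells, and 7.23% and 6.45% in shNR4A3 cells. MPO, CEBPA, TYROBP, CD33 and CD68 were called in none of these comparisons. The part these markers have in the differences between lines was not tested. The T cell, erythroid, epithelial and fibroblast markers, 3 each, all stayed under 1 TPM. Of the B cell markers, MS4A1 had no count in 16 of 18 libraries, while CD79A lay between 0.492 and 3.48 TPM.

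In unstimulated shNT cells the 10 transcripts spanned a wide range of levels, with NFKBIA highest at 125 ± 13.5 TPM (SD, n = 3) and NFKBIZ lowest at 3.27 ± 0.106 TPM. Below NFKBIA came RELA at 75.9 ± 4.35, NFKBIE at 69.9 ± 4.53, NFKB1 at 50.1 ± 4.44, RELB at 40.4 ± 5.20, NFKBIB at 36.2 ± 2.99, NFKB2 at 24.8 ± 1.78, BCL3 at 20.0 ± 2.32 and REL at 9.08 ± 0.666 TPM. RELA and NFKBIE overlapped between libraries, as did RELB and NFKBIB; the other neighbours in this order did not. After LPS the order in shNT cells was NFKBIA at 1778 ± 132, NFKBIZ at 476 ± 54.6, NFKB2 at 409 ± 67.3, NFKB1 at 394 ± 59.8, RELB at 362 ± 36.7, NFKBIE at 181 ± 12.6, NFKBIB at 92.2 ± 9.78, RELA at 83.0 ± 7.68, REL at 57.7 ± 6.77 and BCL3 at 54.1 ± 9.75 TPM. NFKBIZ thus moved from the lowest place to next after NFKBIA, and RELA from next after NFKBIA to the eighth. NFKBIZ overlapped with NFKB2, NFKB2 with NFKB1, NFKB1 with RELB, NFKBIB with RELA and REL with BCL3, and no other neighbours did. The level of REL is the least certain of the 10, since 50.7% of its exon bases are shared with AC010733.2 on the same strand and reads there may have gone to either gene or to none; NFKBIB shares 1.72% with SIRT2 on the opposite strand and the other 8 share none.

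**Figure D1:**
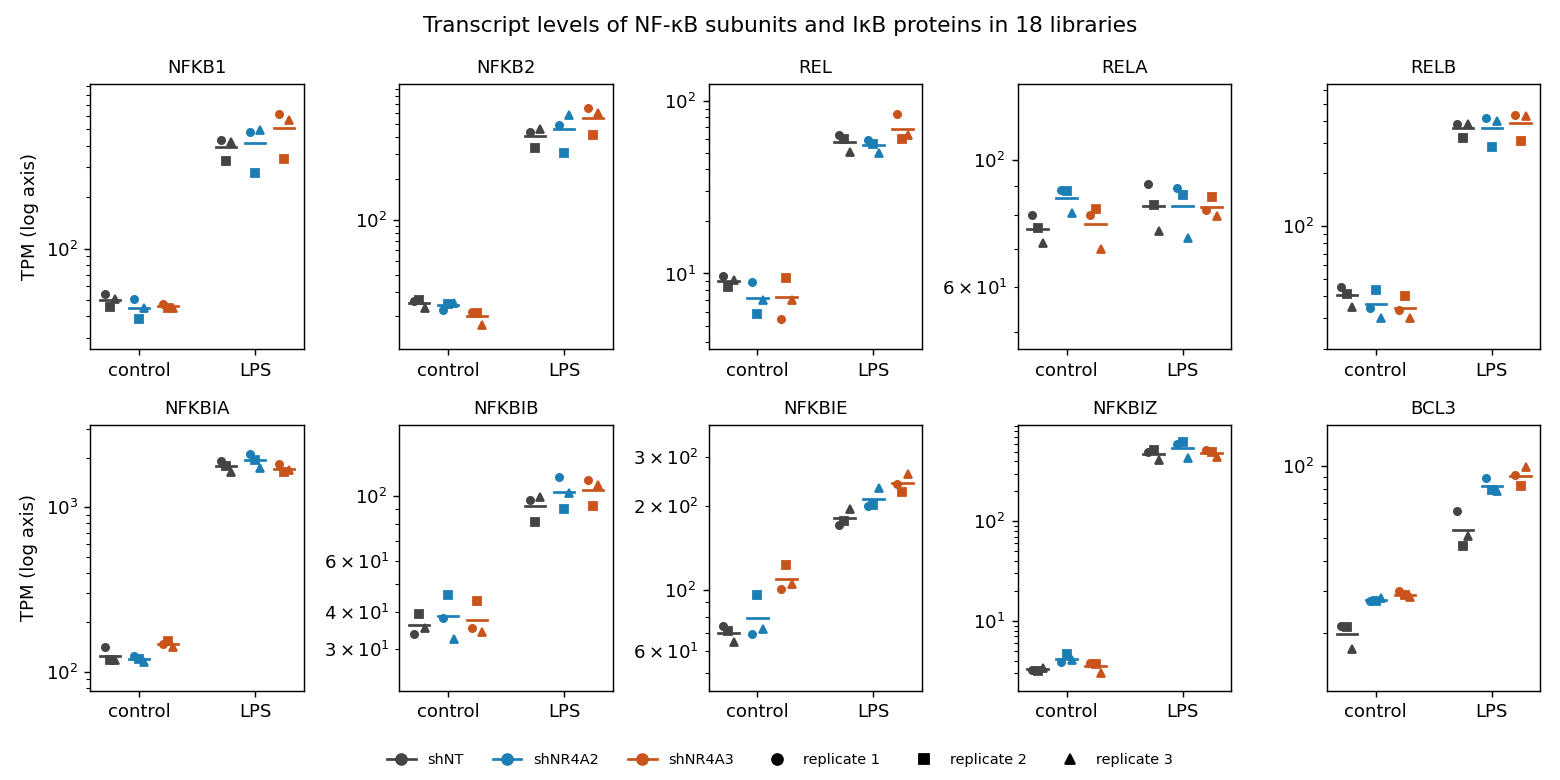
TPM of each gene (log axis, its own range in each panel) in the 18 libraries, by control or LPS; colours are the lines, symbols the replicate numbers and bars the means of 3 libraries. Every gene but RELA has all 9 LPS libraries above all 9 control libraries, and NFKBIZ goes from 3.27 to 476 TPM in shNT cells.

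With LPS, 10 of 10 genes were called higher in shNT cells, 9 of 10 in shNR4A2 cells and 10 of 10 in shNR4A3 cells, where 11.6%, 9.23% and 13.1% of all genes tested were called higher. The exception was RELA in shNR4A2 cells. The same 9 genes, all but RELA, rose at least 2-fold in each line, beside 4.42%, 5.26% and 6.17% of all genes. The median log2 fold change of the 10 was 3.04, 3.36 and 3.60 in shNT, shNR4A2 and shNR4A3 cells, against -0.01, -0.02 and -0.01 over all genes tested. Of the 12 monocytic markers SPI1 was called higher with LPS in each line (0.61, 0.76 and 0.79). CEBPA (-2.1, -1.9 and -2.4) and CD33 (-0.44, -0.50 and -0.53) were called lower in each line. CSF1R was called lower in shNT (-0.44) and shNR4A3 cells (-0.36). The part of these markers in the rises was not tested. All these values are measurements of RNA from whole cultures, in which fewer cells of a type and less RNA per cell cannot be told apart.

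Among the subunits NFKB2, the precursor of p52, rose most. Its level was 25.7, 26.0 and 22.8 TPM in the shNT controls and 434, 333 and 460 TPM with LPS, a 19.2-fold rise (log2 4.26, SE 0.146, edgeR adjusted p = 4.21e-11). In shNR4A2 cells it went from 22.2, 24.4 and 25.0 to 486, 307 and 581 TPM, and in shNR4A3 cells from 21.4, 21.2 and 17.1 to 653, 411 and 599 TPM, a 32.9-fold rise (log2 5.04, SE 0.208). Control and LPS libraries were far apart in all lines, and the LPS libraries of different lines overlapped.
NFKB1, the precursor of p50, was at 54.1, 45.3 and 50.8 TPM in the shNT controls and at 435, 325 and 421 TPM with LPS (log2 3.20, SE 0.127). It reached 483, 276 and 498 TPM in shNR4A2 cells and 619, 335 and 568 TPM in shNR4A3 cells. Replicate 2 was the lowest LPS library of each line. RELB, the usual partner of p52, went from 45.3, 41.0 and 34.9 TPM to 383, 320 and 383 TPM in shNT cells (log2 3.38, SE 0.130), and its log2 fold change was 3.62 in shNR4A2 and 3.74 in shNR4A3 cells.
REL encodes c-Rel, a subunit best known from lymphoid and myeloid cells. It went from 9.68, 8.36 and 9.21 TPM to 63.2, 59.7 and 50.2 TPM in shNT cells (log2 2.88, SE 0.102), and its log2 fold change was 3.20 in shNR4A2 and 3.48 in shNR4A3 cells. RELA, which encodes p65 and forms the common p50 dimer, moved little. It was at 80.2, 75.9 and 71.5 TPM in the shNT controls and at 90.6, 83.3 and 75.2 TPM with LPS, so that the groups overlapped. After TMM normalization its log2 fold change was 0.35 (SE 0.0940, edgeR adjusted p = 0.0150) in shNT, 0.22 (SE 0.122, adjusted p = 0.246) in shNR4A2 and 0.32 (SE 0.0892, adjusted p = 0.0194) in shNR4A3 cells. In TPM the shNR4A2 mean was instead lower with LPS, at 83.0 ± 8.73 against 85.9 ± 4.44, so the sign in that line depends on the scaling. The calls on RELA also rest on single libraries: in shNT cells the adjusted p was 0.0668 without control replicate 3 and 0.0605 without LPS replicate 1, and in shNR4A3 cells it was 0.0906 without control replicate 3, 0.0667 without LPS replicate 1 and 0.0535 without LPS replicate 3.

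The classical inhibitors rose together but by unequal amounts. NFKBIA, which encodes IκBα, went from 141, 117 and 118 TPM to 1909, 1783 and 1644 TPM in shNT cells, a 16.5-fold rise (log2 4.04, SE 0.106, edgeR adjusted p = 2.83e-12). It went from 124, 119 and 115 to 2105, 1939 and 1721 TPM in shNR4A2 cells and from 148, 154 and 141 to 1818, 1636 and 1674 TPM in shNR4A3 cells. The LPS libraries of all lines lay between 1636 and 2105 TPM, at least 10 times any control library. NFKBIB (IκBβ) went from 33.7, 39.5 and 35.4 to 96.5, 81.0 and 99.1 TPM in shNT cells (log2 1.57, SE 0.121), with log2 fold changes of 1.68 in shNR4A2 and 1.70 in shNR4A3 cells. NFKBIE (IκBε) went from 73.8, 71.1 and 64.9 to 171, 177 and 195 TPM in shNT cells (log2 1.59, SE 0.101), and its log2 fold change was 1.69 in shNR4A2 and 1.38 in shNR4A3 cells. NFKBIB and NFKBIE thus rose about 3-fold where NFKBIA rose more than 13-fold in each line.

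The nuclear family members differed widely in their response. NFKBIZ, which encodes IκBζ, was at 3.24, 3.18 and 3.38 TPM in the shNT controls and at 498, 515 and 413 TPM with LPS. Its rise was 169-fold in shNT cells (log2 7.40, SE 0.116, edgeR adjusted p = 5.91e-14), 158-fold in shNR4A2 cells and 163-fold in shNR4A3 cells. With LPS it stood at 591, 618 and 434 TPM in shNR4A2 and 524, 496 and 443 TPM in shNR4A3 cells, and the lines overlapped. BCL3, a partner of p50 and p52 dimers, went from 21.4, 21.3 and 17.3 to 65.0, 46.2 and 51.1 TPM in shNT cells (log2 1.65, SE 0.148), with log2 fold changes of 1.86 and 1.88 in shNR4A2 and shNR4A3 cells.

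**Figure D2:**
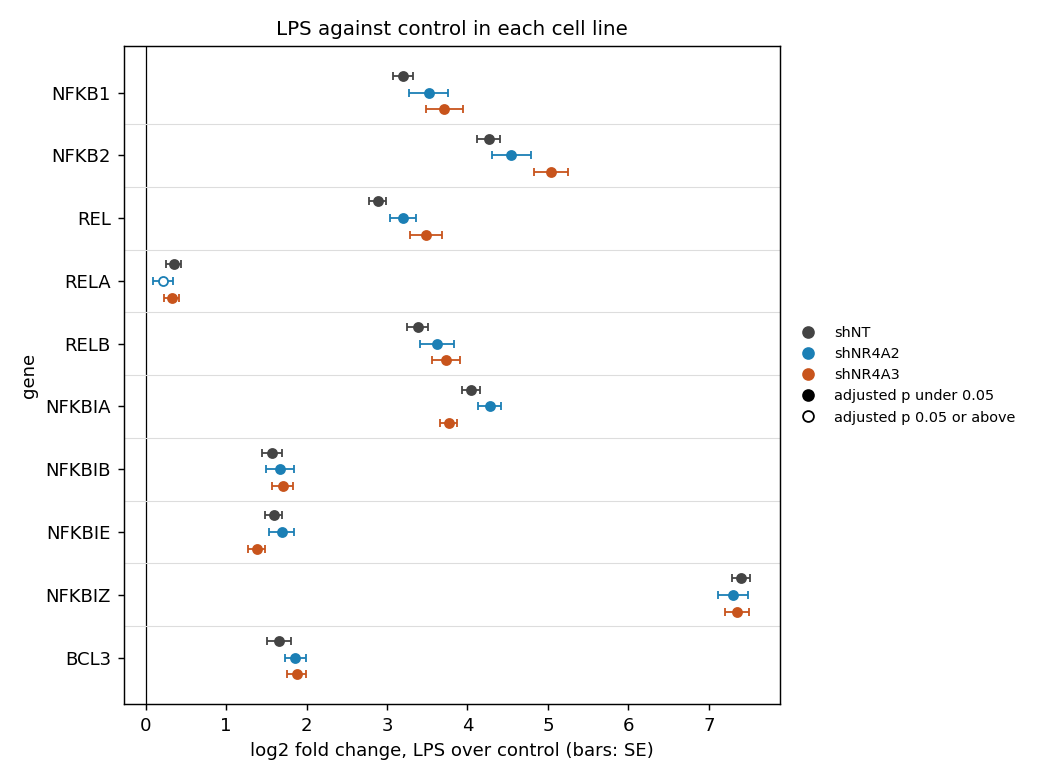
Log2 fold change of each gene with LPS over control in each line (3 libraries against 3), with bars of 1 SE; filled points passed an adjusted p under 0.05. NFKBIZ stands above 7 in all lines, RELA at 0.35 or below, and the remaining genes between 1.38 and 5.04.

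Because the subunits rose unequally, their shares of the summed subunit TPM changed. RELA was 37.9 ± 0.662% of the 5 subunits' TPM in shNT controls and 6.43 ± 1.01% with LPS (SD, n = 3 each), while NFKB2 went from 12.4 ± 0.693% to 31.2 ± 1.72%. RELA went from 43.5 ± 0.508% to 6.33 ± 2.07% in shNR4A2 cells and from 41.9 ± 0.658% to 5.39 ± 1.57% in shNR4A3 cells. NFKB1 went from 25.0% to 30.1% and RELB from 20.1% to 27.8% in shNT cells, and REL was at 4.54% and 4.48%. Control and LPS libraries did not overlap for RELA, NFKB2, NFKB1 and RELB in any line; the two-sided exact permutation p was 0.1 for each, the smallest that 3 against 3 libraries allow. For REL it was 0.9 in shNT and 0.6 in each knockdown line.
The sum of the subunits rose from 200.2 to 1305 TPM in shNT, 198 to 1379 TPM in shNR4A2 and 185 to 1601 TPM in shNR4A3 cells, and the sum of NFKBIA, NFKBIB and NFKBIE from 231 to 2052, 237 to 2235 and 295 to 2055 TPM. There were 1.16 ± 0.00229 classical inhibitor transcripts per subunit transcript in shNT controls and 1.59 ± 0.216 with LPS (exact permutation p = 0.1). The ratio went from 1.20 ± 0.0878 to 1.69 ± 0.471 in shNR4A2 cells (exact permutation p = 0.2) and from 1.60 ± 0.0764 to 1.32 ± 0.266 in shNR4A3 cells (exact permutation p = 0.3), with overlapping libraries in both. The exact test does not use the replicate number. By number, the ratio went from 1.13 to 1.58, 1.30 to 2.21 and 1.17 to 1.29 in shNR4A2 cells, higher with LPS in each pair, and from 1.51 to 1.16, 1.62 to 1.63 and 1.66 to 1.18 in shNR4A3 cells, lower in 2 of 3. The size of the change in both knockdown lines depended on replicate 2 with LPS: without it the change was 0.233 in place of 0.491 in shNR4A2 and -0.428 in place of -0.274 in shNR4A3 cells. In CPM, without division by gene length, the control ratios were 0.528, 0.553 and 0.732, and they changed in the same directions, with an exact permutation p of 0.1, 0.1 and 0.4. Without LPS the ratio was 1.60 in shNR4A3 against 1.16 in shNT cells, with no overlap (exact permutation p = 0.1, a comparison chosen after its values were seen). With LPS it was instead lower, at 1.32 against 1.59 (exact permutation p = 0.3), and lower in each same-numbered pair. The shNR4A2 ratio differed from shNT with an exact permutation p of 0.7 without and 0.8 with LPS. The RELA share without LPS was higher in shNR4A2 (43.5%) and shNR4A3 cells (41.9%) than in shNT cells (37.9%), with no overlap and an exact permutation p of 0.1 each. With LPS the RELA shares of the lines overlapped. All these comparisons of ratios and shares between lines were chosen after their values were seen. These shares describe transcripts and not protein, dimers or activity.

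**Figure D3:**
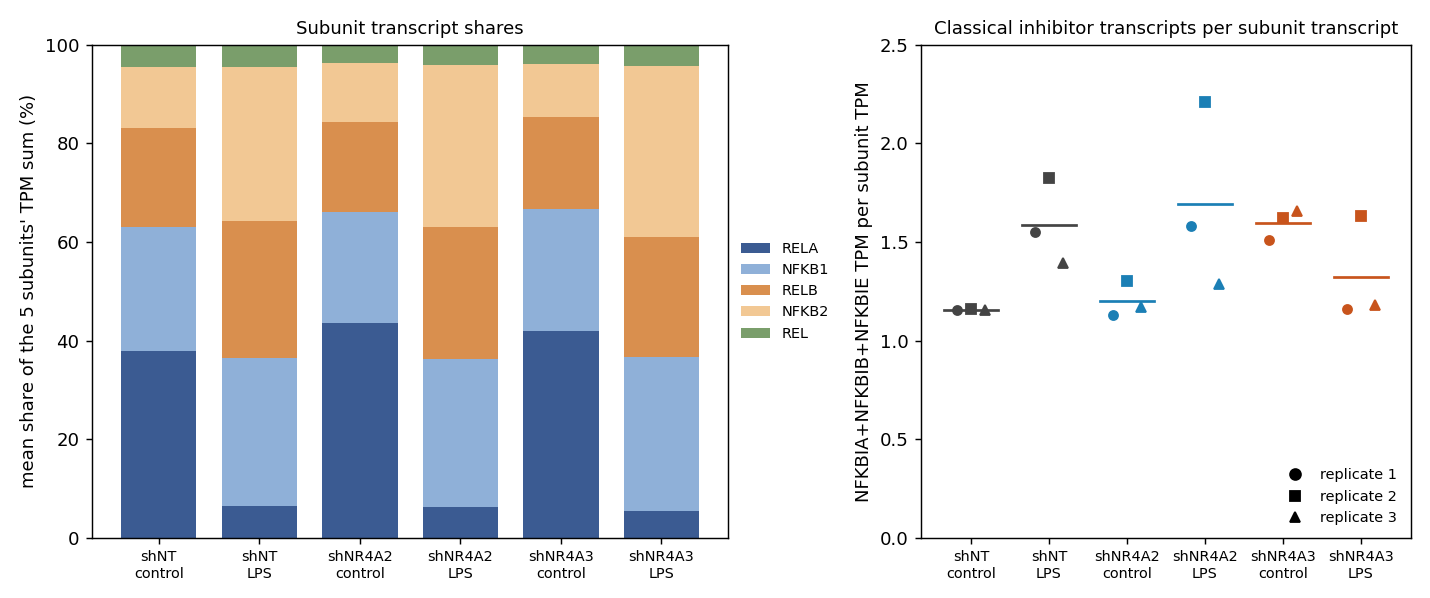
Left, mean share (%) of each subunit in the summed TPM of the 5 subunits in the 6 groups; right, NFKBIA, NFKBIB and NFKBIE TPM per subunit TPM, with points for libraries and bars for means of 3. The RELA share falls from 37.9% or more to 6.43% or less with LPS in each line, and the ratio is highest in replicate 2 of each LPS group.

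Among all genes as among the 10, the lowest or highest LPS library often had the same replicate number in all 3 lines. The share of all genes is given for each number and end. BCL3 was lowest in replicate 2 of shNT and shNR4A3 cells and in replicate 3 of shNR4A2 cells. NFKB1, NFKB2, RELB and NFKBIB, 4 of the 10 genes, were lowest in replicate 2 of all 3 lines, where 5.63% of the 15571 genes with a mean of at least 10 counts were lowest in replicate 2 of all 3 and 27.2% were highest there. REL and NFKBIA were instead highest in replicate 1 of all 3 LPS groups, as 5.93% of all these genes were. RELA and NFKBIZ were lowest in replicate 3 of all 3, as 12.7% of them were, and NFKBIE was highest there, as 7.52% were. The numbers were treated as pairing the libraries of a comparison, as set out under the processing of the data, and a fit that blocks on this number is given wherever it alters a call.

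The knockdown lines were then compared with shNT cells, and BCL3 and NFKBIE were the genes called higher. The 4 comparisons share the shNT libraries within a state, so they do not bear on each other independently. Without LPS, shNR4A2 cells had 0 of 10 genes called, where 6.45% of all genes were called. At an unadjusted p under 0.05 there were 2 of the 10, where 21.3% of all genes were, and DESeq2 called 1, BCL3, where it called 8.13% of all genes. With the replicate block 3 were called, where 23.6% of all genes were: BCL3 higher (log2 0.47, edgeR adjusted p = 0.00480), RELA higher (0.18, adjusted p = 0.0422) and REL lower (-0.33, adjusted p = 0.0231). With LPS, BCL3 alone was called in shNR4A2 cells, where 6.96% of all genes were. Under the block 4 genes were called higher, where 28.1% of all genes were: BCL3, NFKBIE (0.28), NFKBIB (0.21) and NFKBIZ (0.25).
In shNR4A3 cells without LPS 2 of 10 genes were called, NFKBIE and BCL3, where 7.23% of all genes were, and the block added NFKBIA (0.29, edgeR adjusted p = 0.0186), where 14.8% of all genes were called. With LPS the same 2 were called, where 6.45% of all genes were. The block then called 6 genes higher, where 21.8% of all genes were: BCL3, NFKBIE, NFKB2 (0.48, edgeR adjusted p = 0.000291), NFKB1 (0.39), REL (0.31) and NFKBIB (0.24). No gene of the 10 differed by 2-fold from shNT in any of the 4 comparisons, and RELB was called in none of them with or without the block. The shares of all genes called also rest on single libraries. Without LPS the 1019 calls for shNR4A2 fell to 612 and 517 without shNT replicate 2 or 3, and the 1108 for shNR4A3 fell to 650 and 649 without the same libraries and to 674 and 657 without shNR4A3 replicate 1 or 3. With LPS the 1085 calls for shNR4A2 fell to 519, 342 and 409 without shNT replicate 1, 2 or 3 and to 553 without shNR4A2 replicate 1. The 1005 calls for shNR4A3 with LPS fell to 383 and 485 without shNT replicate 2 or 3 and to 526 and 461 without shNR4A3 replicate 1 or 3, and rose to 1693 without shNR4A3 replicate 2.

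BCL3 was at 21.4, 21.3 and 17.3 TPM in the shNT controls, 27.2, 27.3 and 28.1 TPM in the shNR4A2 controls and 30.0, 28.8 and 28.4 TPM in the shNR4A3 controls. With LPS it was at 65.0, 46.2 and 51.1 TPM in shNT, 89.6, 79.7 and 78.7 TPM in shNR4A2 and 91.5, 82.4 and 99.2 TPM in shNR4A3 cells. Every library of either knockdown line was above every shNT library in the same state.
The log2 difference from shNT in shNR4A2 cells was 0.46 (SE 0.133, edgeR adjusted p = 0.0648) without and 0.67 (SE 0.145, adjusted p = 0.0266) with LPS. In shNR4A3 cells it was 0.59 (SE 0.128, edgeR adjusted p = 0.0137) without and 0.81 (SE 0.143, adjusted p = 0.0105) with LPS. Some of these calls rest on single libraries. With LPS in shNR4A2 cells the adjusted p was 0.101 without shNT replicate 2, 0.0914 without shNT replicate 3 and 0.0907 without shNR4A2 replicate 1, and in shNR4A3 cells without LPS it was 0.0561 without shNT replicate 3.
NFKBIE was at 73.8, 71.1 and 64.9 TPM in the shNT controls, 69.0, 95.5 and 72.3 TPM in the shNR4A2 controls and 100, 123 and 105 TPM in the shNR4A3 controls. The shNR4A3 controls lay above all shNT and shNR4A2 controls, and the latter overlapped with shNT. With LPS it was at 171, 177 and 195 TPM in shNT, 200, 201 and 233 TPM in shNR4A2 and 239, 224 and 261 TPM in shNR4A3 cells. The shNR4A3 difference from shNT was 0.69 (SE 0.10, edgeR adjusted p = 0.00102) without and 0.48 (SE 0.103, adjusted p = 0.0242) with LPS. The call with LPS was lost on leaving out shNT replicate 1 (adjusted p = 0.0864) or 2 (0.115), or shNR4A3 replicate 1 (0.0837) or 3 (0.104). In shNR4A2 cells the NFKBIE difference was 0.18 (SE 0.142, adjusted p = 0.532) without and 0.28 (SE 0.111, adjusted p = 0.169) with LPS.
The remaining differences were not called without the block and spanned -0.32 (REL) to 0.35 (NFKBIZ) in shNR4A2 controls, 0.00 (REL) to 0.26 (NFKBIZ) in shNR4A2 cells with LPS, -0.27 (REL) to 0.29 (NFKBIA) in shNR4A3 controls and 0.00 (NFKBIA) to 0.50 (NFKB2) in shNR4A3 cells with LPS, NFKBIE in shNR4A2 cells apart. The median over the 10 genes was 0.02, 0.19, 0.09 and 0.28 in that order of comparisons, beside -0.01 to 0.00 over all genes.

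**Figure D4:**
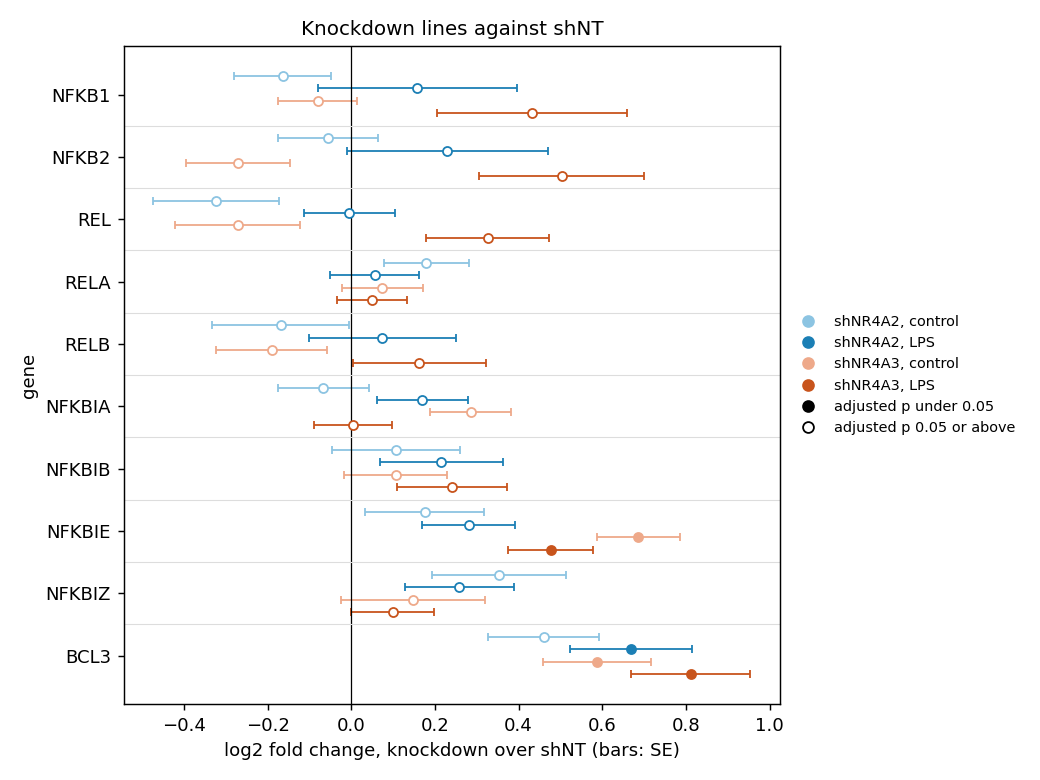
Log2 fold change of each gene in the knockdown lines over shNT, without and with LPS (3 libraries against 3, no replicate block), with bars of 1 SE; filled points passed an adjusted p under 0.05. BCL3 lies to the right of 0 in all 4 comparisons and NFKBIE is filled in both shNR4A3 comparisons.

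**Figure D5:**
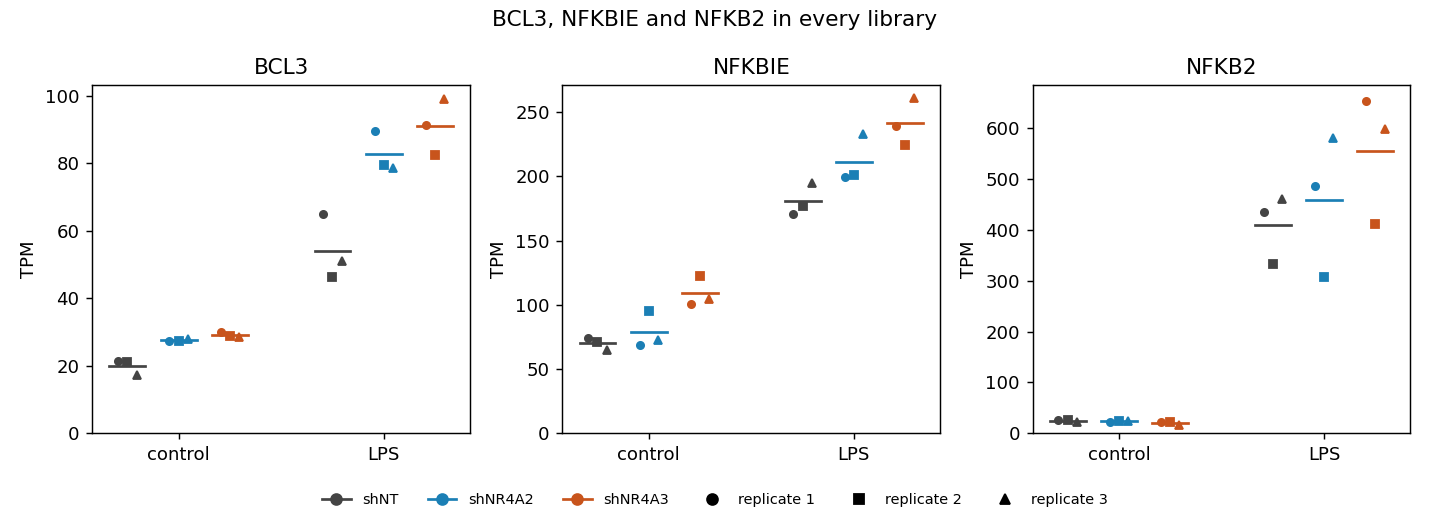
TPM of BCL3, NFKBIE and NFKB2 in every library from 0 upwards; colours are the lines, symbols the replicate numbers, bars the means of 3. BCL3 libraries of both knockdown lines lie above those of shNT in each state, while the NFKB2 libraries of the 3 lines overlap with LPS, replicate 2 being lowest in each.

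Compared with each other, the knockdown lines had none of the 10 genes called by the edgeR fit without a block, where 3.08% of all genes were called without and 2.33% with LPS. At an unadjusted p under 0.05 there were 2 of the 10 without LPS and 0 with LPS, where 14.5% and 17.8% of all genes were. DESeq2 called 2 of the 10 without LPS and 0 with LPS, where it called 4.26% and 4.5% of all genes. The edgeR calls over all genes fell from 480 to 249 and 251 without shNR4A3 control replicate 1 or 3, and with LPS from 362 to between 94 (without shNR4A3 replicate 1) and 217 (without shNR4A2 replicate 3) on leaving out any of the 6 libraries. Without LPS the differences of shNR4A2 from shNR4A3 ran from -0.51 (NFKBIE, SE 0.137, edgeR adjusted p = 0.0704) to 0.22 (NFKB2), NFKBIA being at -0.35 (SE 0.0991, adjusted p = 0.0836). With the block NFKBIE (-0.52, edgeR adjusted p = 0.00118) and NFKBIA (-0.35, adjusted p = 0.00671) were called lower in shNR4A2 than in shNR4A3 cells, where 11.6% of all genes were called. With LPS and the block, 5 of the 10 were called, where 23.6% of all genes were: NFKB1 (-0.28), NFKB2 (-0.30), REL (-0.31) and NFKBIE (-0.19) lower in shNR4A2 than in shNR4A3 cells, and NFKBIA (0.16) higher.

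Whether a hairpin altered the response to LPS itself was tested as the interaction of line and LPS over 12 libraries. At the filter used and without a block, edgeR called none of the 10 genes for either line, nor any other gene. That is 0% of 16674 and 0% of 16428 genes tested, with 365 (2.19%) and 824 (5.02%) below 0.05 before adjustment. With the replicate block 8 genes were called for shNR4A2 and 22 for shNR4A3, none of them among the 10. With no filter on low counts 29 and 138 genes were called. By DESeq2 2 (0.00454%) and 10 genes (0.0827%) passed, none of them among the 10. For shNR4A2 the interaction ran from -0.12 (RELA) to 0.32 (NFKB1), with 0 of 10 at an unadjusted p under 0.05. For shNR4A3 it ran from -0.28 (NFKBIA) to 0.77 (NFKB2, SE 0.258, unadjusted p = 0.00895, adjusted p = 0.886), with REL at 0.60 (SE 0.230, unadjusted p = 0.0202) and NFKB1 at 0.51 (SE 0.273, unadjusted p = 0.0803). With no filter on low counts edgeR called NFKB1, NFKB2 and REL for shNR4A3, at adjusted p of 0.0240, 2.02e-05 and 0.0176, where 0.314% of all genes were called. The larger LPS fold changes of NFKB1, NFKB2 and REL in shNR4A3 cells therefore did not pass the test of the difference at the filter used.

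Of 20 genes of the signalling route from TLR4 and related receptors, 8 were called higher and 1 lower with LPS in shNT cells. The counts were 6 and 1 in shNR4A2 cells and 8 and 1 in shNR4A3 cells. Over all genes tested, 11.6%, 9.23% and 13.1% were called higher in shNT, shNR4A2 and shNR4A3 cells. Called lower were 2089 of 15711, 1595 of 15772 and 2305 of 15342 genes. The median log2 fold change of the 20 genes was 0.15, 0.14 and 0.08. The largest rises were in IRAK2, a kinase-like adaptor below MYD88 (4.64, 4.91 and 4.68 in shNT, shNR4A2 and shNR4A3 cells), MAP3K8, a kinase held by p105 (3.40, 3.81 and 4.21) and TRAF3, which restrains the non-canonical kinase (1.68, 1.85 and 2.27). TAB1, a partner of the kinase TAK1, was the gene called lower in each line (-0.41, -0.59 and -0.68). CHUK and IKBKB, the catalytic IκB kinases, were at 0.19 and -0.06 in shNT cells, neither called.
Of 13 further negative regulators, 9 were called higher and 1 lower in shNT, 8 and 1 in shNR4A2 and 10 and 1 in shNR4A3 cells. Over all genes, 11.6%, 9.23% and 13.1% were called higher, and 2089 of 15711, 1595 of 15772 and 2305 of 15342 lower. The medians of the 13 were 1.20, 1.31 and 1.23. TNFAIP3, the ubiquitin-editing enzyme A20, rose by 5.85, 5.78 and 6.29, and ZC3H12A, an RNase that degrades cytokine mRNA, by 5.38, 5.36 and 5.63. TNIP3, an A20-binding protein, rose by 7.52, 7.90 and 8.19 from 8, 17 and 11 counts in all over the control libraries of the lines. PDLIM2, a nuclear ubiquitin ligase for p65, fell by 0.71, 0.83 and 0.82.
All 22 listed κB target genes were called higher in each line, where 11.6%, 9.23% and 13.1% of all genes were. The median log2 fold change of the 22 was 5.89, 6.19 and 6.53. With IL6 at its bound against a floor of 3 counts over the control group, it was 5.56, 6.19 and 6.41. CCL4, a chemokine, rose by 9.71, 9.74 and 10.2, CXCL3 by 9.11, 9.69 and 9.40 and CXCL2, both neutrophil chemokines, by 8.35, 8.40 and 8.41. IL6 had no count in the shNT and shNR4A2 controls and 1 in the shNR4A3 controls, against 87, 248 and 272 counts with LPS.

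In the knockdown comparisons the calls with LPS in these lists were all higher than in shNT. Of the 20 signalling genes 0, 1, 3 and 1 were called in shNR4A2 without and with LPS and in shNR4A3 without and with LPS, where 6.45%, 6.96%, 7.23% and 6.45% of all genes were. TAB2, which links ubiquitin chains to TAK1, was higher with LPS in shNR4A2 (0.67) and shNR4A3 cells (0.75), and without LPS in shNR4A3 cells (0.36), where IRAK2 was higher (0.62) and TRAF3 lower (-0.64). Of the 12 negative regulators tested without LPS, 1 was called higher and 1 lower in shNR4A2 cells and 1 higher in shNR4A3 cells. Of the 13 tested with LPS, 2 were called higher in each knockdown line. The shares of all genes were the same as for the signalling genes. TNIP2, which binds p105 and A20, was higher in all 4 comparisons (0.42, 0.56, 0.41 and 0.42). TNIP3 was higher with LPS in shNR4A2 (1.26) and shNR4A3 cells (1.29). IRAK3, an inhibitory member of its kinase family, was lower in shNR4A2 controls (-0.41).
Of the 20 κB target genes tested without LPS 1 was higher and 1 lower in shNR4A2 cells, and 1 was higher and 3 lower in shNR4A3 cells. Over all genes 6.45% and 7.23% were called there in either direction. Of the 22 tested with LPS 6 were higher in shNR4A2 and 7 in shNR4A3 cells, beside the 6.96% and 6.45% of all genes called in either direction. The targets with the largest rises with LPS were IL6 (1.69), the survival gene BCL2A1 (1.02) and TRAF1 (0.85) in shNR4A2 cells, and IL6 (1.83), the adhesion molecule ICAM1 (0.95) and TRAF1 (0.87) in shNR4A3 cells. Without LPS, BCL2A1 (-1.20), TNF (-1.02) and CD40 (-0.71) were lower and PLAU (0.47) higher in shNR4A3 cells, and TNFAIP2 (0.50) was higher and CFLAR (-0.52) lower in shNR4A2 cells. The medians of the κB target list were 0.16, 0.39, -0.12 and 0.46 in the same order of comparisons. The lists hold no gene of the 10.

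The genes whose pattern over the groups lay closest to each of the 10 were found from mean log2 CPM in 5 groups relative to unstimulated shNT cells, by the root mean square difference over these groups among 16935 genes. Closest to NFKBIZ were the chemokine genes CCL3 (0.281) and CXCL8 (0.321) and the potassium channel gene KCNJ2. NFKBIE was closest to TLR2, a receptor for bacterial lipoprotein (0.129), CRYBG1 and the interferon-γ receptor chain IFNGR2, and NFKBIB to PELI1, a ubiquitin ligase (0.0848), TP53BP2 and RNF19B. RELA was closest to JOSD1 (0.0369), CSNK2B and MED19, none of which moved much.
For the rest the closest genes included ones with few reads. BCL3 was closest to AC061992.1 (0.122), PIK3AP1 and TNC, of which PIK3AP1 had a mean of 5269 counts per library and the others under 30. NFKBIA was closest to PNRC1 (0.129), then CSF3 and MGAT4C, NFKB1 to AL365361.1 (0.144), CHST2 and SIX5, RELB to TMEM217 (0.106), SIX5 and NCOA7, REL to NBPF19 (0.124), IGLV3-9 and FOXC1, and NFKB2 to CCL8 (0.183), AC245128.3 and CYP7A1. CCL8, CYP7A1, CSF3 and MGAT4C each had at least 1 library without a count. Likeness over 5 group means is a description, since the groups share lines and treatment.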

How the data were processed

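The deposited files give raw counts of reads per gene and the gene length for each library. The submitters' processing notes name Trimmomatic 0.36, STAR 2.5.2b, featureCounts of Subread 1.5.2 and GRCh38, without roles or settings; strand use is not given in the sources used here. Libraries were polyA selected. The study calls the 3 libraries of a group independent experiments, which the labels do not state. Of the 57500 genes, 56898 had a GENCODE 29 symbol. No libraries were identical, and within groups they correlated at 0.988 to 0.995 across genes.

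The 10 genes, the gene lists and the tests were chosen with earlier results of these data known. A comparison used 6 libraries, and an interaction 12, in edgeR 4.0.16 under R 4.3.3: filterByExpr, TMM, the quasi-likelihood F test and Benjamini-Hochberg adjustment over all genes tested. The study itself used DESeq2. The alternatives were DESeq2 1.42.0, its size factors within edgeR, an unfiltered table, a block for replicate number, a single fit of all 18 libraries, a 2-fold limit and leaving out each library; the fits were tested on simulated data. TPM were computed from counts and lengths. A further listed marker is not reported here. Named were all 10 genes, the hairpin targets, up to 3 called genes each way of each list, and the 3 nearest genes; CHUK and IKBKB were added after their values were seen.

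The replicate numbers come from the labels. Deviations from group means of same-numbered libraries correlated across genes above 0.1 in every replicate of 8 of the 9 pairwise comparisons. The numbers were therefore taken to pair them. For LPS in shNT cells the lowest correlation was 0.0598, and for the interactions 0.0174 and 0.0266. Differently numbered libraries were not correlated. Calls are from fits without this pairing unless the block is named.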

Additional observations from a re-analysis of the deposited data

How the results depend on the processing

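The LPS counts of 10, 9 and 10 genes kept within 1.5 times under every alternative. With CPM in place of TPM the RELA share changed with LPS by -31.9, -37.9 and -37.0 percentage points in shNT, shNR4A2 and shNR4A3 cells (TPM -31.5, -37.1 and -36.5). The inhibitor ratio kept its direction but not its size: it changed by 0.233, 0.258 and -0.102 in CPM against 0.433, 0.491 and -0.274 in TPM, from control ratios of 0.528, 0.553 and 0.732 against 1.16, 1.20 and 1.60. Its exact permutation p in shNR4A2 cells was 0.1 in CPM against 0.2 in TPM. The knockdown counts depended on settings. For shNR4A2 against shNT without LPS (0 called), DESeq2 called 1, no filter 1 and the replicate block 3; with LPS (1 called) the block called 4, the 2-fold limit 0, and leaving out single libraries gave 0 to 1. For shNR4A3 without LPS (2 called) the block called 3, the 2-fold limit 0 and leave-outs gave 1 to 2; with LPS (2 called) no filter gave 5, the block 6, the 2-fold limit 0 and leave-outs 1 to 4. For shNR4A2 against shNR4A3 without LPS (0 called) DESeq2 called 2, no filter 1, the block 2, all 18 libraries in 1 fit 1 and leave-outs 0 to 1; with LPS (0 called) the block called 5. For the interaction of shNR4A3 and LPS (0 called) no filter called 3, where it called 138 genes in all. Over all genes that interaction also went from 0 to 44 calls without shNR4A3 LPS replicate 2, none of them among the 10, and the shNR4A2 one from 0 to 8 without shNR4A2 LPS replicate 2. The cause was not tested. The replicate block changed no other call among the 10 genes.

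Differences near 0 changed sign. NFKBIA in shNR4A3 with LPS was 0.0047, -0.018 with no filter and -0.078 to 0.070 with libraries left out. Leave-outs gave, without LPS in shNR4A2, NFKBIA -0.14 to 0.030, NFKBIB -0.051 to 0.23 and NFKBIE -0.0055 to 0.26, and with LPS REL -0.095 to 0.066, RELA -0.035 to 0.13 and RELB -0.062 to 0.26. With 3 libraries a group, single libraries carried several knockdown calls.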
